A study of Mus musculus with 9 samples.

Results

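The hypoxia-inducible factor (HIF) genes described here are 10 genes of the deposited mouse count table, chosen by gene name: the subunit genes Hif1a, Epas1 and Arnt, the oxygen sensor genes Egln1 and Egln3, and the HIF targets outside glycolysis Vegfa, Adm, Bnip3, Ankrd37 and Ndrg1. The table lists 55401 genes, of which 16762 passed a filter on low counts, and 10 of the 10 HIF genes were among these. All are annotated as protein-coding and lie, on GRCm38, on chromosomes 12 (Hif1a, Egln3), 17 (Epas1, Vegfa), 3 (Arnt), 8 (Egln1, Ankrd37), 7 (Adm, Bnip3) and 15 (Ndrg1, positions 66929318 to 66969640). Heart ventricle cells had been taken from wild-type C57BL/6J pups aged 1 day and grown as primary cultures, and their poly(A) RNA was sequenced in 9 libraries, 3 in each of 3 groups. Control cultures stayed in normal oxygen and in complete DMEM with 10% FBS. Hypoxia cultures spent 6 h in a closed AnaeroPack chamber, which removes oxygen, in DMEM that held neither glucose nor serum. Hypoxia + rSRGN cultures went through the same 6 h in the same medium with recombinant serglycin (rSRGN), the core protein of a secreted and granule-bound proteoglycan. Low oxygen, absence of glucose and absence of serum occurred together, so the effects of these 3 changes cannot be told apart wherever control is the reference. Between the hypoxic groups only the added protein differs, going by the labels. The labels do not say whether replicates came from separate litters or cultures, so p-values measure the spread between these libraries, which may be technical.

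HIF is a pair of an α subunit, HIF-1α from Hif1a or HIF-2α from Epas1, and the β subunit from Arnt. In normal oxygen, prolyl hydroxylases such as those encoded by Egln1 (PHD2) and Egln3 (PHD3) mark the α subunit, which the VHL ubiquitin ligase then sends to the proteasome. When oxygen is short the α subunit is spared, pairs with ARNT and binds a short DNA core at its targets, among them genes for blood vessel growth, mitochondrial clearance and glycolysis. Oxygen acts on HIF mainly through the stability of the α protein, and the counts used here measure RNA and not protein. In heart muscle the pathway is known from ischemia, where it is tied to vessel growth and to the shift from oxidative to glycolytic metabolism.

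Levels are given as TMM-scaled CPM, which are counts divided by library size, and changes as log2 fold changes with the standard error (SE) of an edgeR quasi-likelihood fit over the 9 libraries. A gene was called where the Benjamini-Hochberg adjusted p, taken over the 16762 genes, was below 0.05 and the fold change was at least 1.5 in either direction. Total counts were 21669017 to 22781557 in control, 16583985 to 18148474 in hypoxia and 16640239 to 20826701 in hypoxia + rSRGN. The cultures were labelled ventricular myocytes, and all 10 cardiomyocyte markers examined were present in every library. Their summed level was 45527 to 55062 CPM in control, 3980 to 6008 CPM in hypoxia and 7746 to 8135 CPM in hypoxia + rSRGN. The summed level of 10 fibroblast markers was 10106 to 11771 CPM in control, 21115 to 23828 CPM in hypoxia and 23073 to 23936 CPM in hypoxia + rSRGN. The 10 macrophage markers summed to 232 to 249 CPM in control, 25.2 to 29.0 CPM in hypoxia and at most 35.5 CPM in hypoxia + rSRGN, with Adgre1 and C1qa at 0 in at least 1 hypoxia library and Ptprc at 0 in at least 1 hypoxia + rSRGN library. The 10 endothelial markers summed to 119 to 151, 113 to 131 and 124 to 149 CPM in the same order, and the 8 smooth muscle and pericyte markers to 1715 to 2024, 2401 to 2713 and 2275 to 2398 CPM. In bulk RNA of this kind, fewer cells of a type and less RNA per cell cannot be told apart, and the part of these markers in the results below was not tested.

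The promoter sequences are shown because HIF binds its targets through the core ACGTG or GCGTG. Of the 10 HIF genes, 6 were called against control in both hypoxic groups. Of all genes tested, 51.6% were called in hypoxia against control and 48.8% in hypoxia + rSRGN against control. RefSeq promoters on GRCm38.p6 were found for 8 of the 10 genes, and the 250 bases before the annotated start were searched for both cores on both strands. The printed genes are those called against control that have a sequence, with Egln3 added as the partner of Egln1. Each stretch runs 5′ to 3′ on the gene's own strand and ends at the base before the start. Capitals mark matches to either core, read on either strand, with overlapping matches joined into a single site, so that CACGC is GCGTG on the other strand.
Hif1a: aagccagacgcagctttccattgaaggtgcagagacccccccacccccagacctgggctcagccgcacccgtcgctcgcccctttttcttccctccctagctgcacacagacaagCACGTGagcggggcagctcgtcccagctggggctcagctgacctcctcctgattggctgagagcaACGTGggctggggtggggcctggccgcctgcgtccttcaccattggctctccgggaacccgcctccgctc
Egln1: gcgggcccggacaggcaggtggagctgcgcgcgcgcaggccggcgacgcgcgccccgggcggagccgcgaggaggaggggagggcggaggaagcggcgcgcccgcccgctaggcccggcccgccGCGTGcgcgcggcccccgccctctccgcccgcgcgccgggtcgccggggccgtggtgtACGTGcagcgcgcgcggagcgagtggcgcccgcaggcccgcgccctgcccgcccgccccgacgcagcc
Egln3: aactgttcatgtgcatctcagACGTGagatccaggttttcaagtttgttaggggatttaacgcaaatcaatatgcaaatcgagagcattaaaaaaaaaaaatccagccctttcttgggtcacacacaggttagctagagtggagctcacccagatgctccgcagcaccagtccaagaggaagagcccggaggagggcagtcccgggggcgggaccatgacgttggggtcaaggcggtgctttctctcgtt
Adm: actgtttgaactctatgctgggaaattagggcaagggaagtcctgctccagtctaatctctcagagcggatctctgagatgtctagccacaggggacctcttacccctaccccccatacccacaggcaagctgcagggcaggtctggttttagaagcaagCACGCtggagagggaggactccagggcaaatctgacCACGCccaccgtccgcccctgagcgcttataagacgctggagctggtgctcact
Bnip3: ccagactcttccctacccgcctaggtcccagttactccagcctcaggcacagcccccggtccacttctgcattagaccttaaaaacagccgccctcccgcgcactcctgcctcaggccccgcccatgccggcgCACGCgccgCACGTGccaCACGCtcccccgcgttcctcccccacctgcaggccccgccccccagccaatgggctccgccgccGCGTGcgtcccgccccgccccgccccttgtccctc
Ankrd37: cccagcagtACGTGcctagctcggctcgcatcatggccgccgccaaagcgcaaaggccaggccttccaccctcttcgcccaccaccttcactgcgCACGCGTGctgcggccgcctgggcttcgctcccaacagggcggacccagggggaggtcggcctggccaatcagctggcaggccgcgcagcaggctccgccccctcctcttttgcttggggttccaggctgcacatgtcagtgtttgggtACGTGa
The Hif1a stretch lies on chr12:73907617-73907866 (plus strand), Egln1 on chr8:124949255-124949504 (minus), Egln3 on chr12:54203875-54204124 (minus), Adm on chr7:110627407-110627656 (plus), Bnip3 on chr7:138909507-138909756 (minus) and Ankrd37 on chr8:45999851-46000100 (minus). The Bnip3 stretch held 4 sites and the Ankrd37 stretch 3, while 4.65% of 32851 promoters of this length held 3 or more. Hif1a, Egln1 and Adm held 2 sites each, and 13.5% of all promoters held 2 or more. Egln3 and Arnt held 1 site each. Vegfa has 2 annotated starts, of which the first held 0 sites and the second 2. The second Vegfa stretch and those of Hif1a and Ankrd37 lie wholly inside the counted genes, whose outermost starts are 7206, 6492 and 5857 bases upstream of these RefSeq starts. The last 70 bases of the Egln1 stretch, which hold its ACGTG site, also lie inside the counted gene. So do the last 13 bases of the Bnip3 stretch, which hold no site. The nearest transcript start of GENCODE on the same build is 282 bases away for the second Vegfa start, 37 for Hif1a and 1 for Ankrd37. The 50 bases after the start were not found in a GENCODE transcript of the gene for Hif1a or for the second Vegfa start. At least 1 match to either core was found in 38.6% of all promoters, ACGTG in 16.6% and GCGTG in 28.2%. Both Adm sites were of the GCGTG form. The palindrome CACGTG, which is also the letters of an E-box, counts as a match on both strands and was present in Hif1a and Bnip3, and in 6.02% of all promoters. These matches are letters and not measured binding. Of the printed genes that were called, Bnip3 (4 sites), Ankrd37 (3), Hif1a (2) and Egln1 (2) were lower in the hypoxic groups, and Adm (2) was higher.

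**Figure D1:**
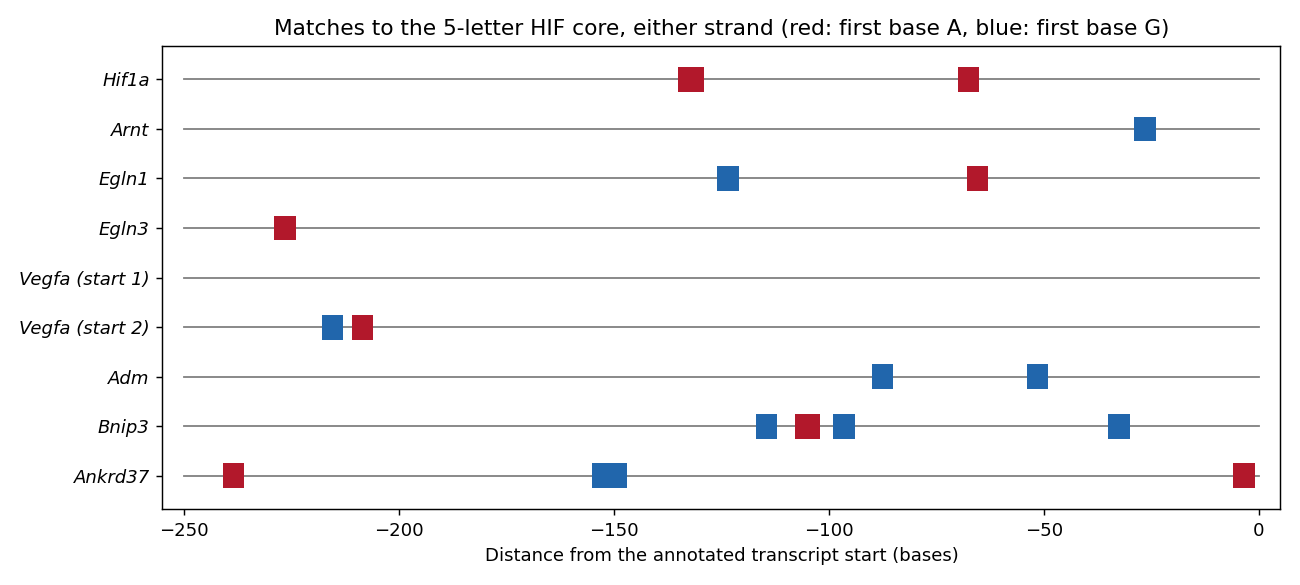
Positions of the matches to the HIF core in the 250 bases before each annotated start, with distance from the start in bases on the horizontal axis and 1 line per promoter (red: a site that begins the core with A on its own strand, blue: with G). Bnip3 has 4 boxes and Ankrd37 3, and the first Vegfa start has none.

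Hif1a had the highest length-corrected level of the 10 genes in control and fell in hypoxia. It was at 364, 318 and 341 CPM in the control libraries, 115, 135 and 105 CPM in hypoxia, and 166, 165 and 156 CPM in hypoxia + rSRGN. The 3 groups did not overlap, with every hypoxia + rSRGN library above every hypoxia library and below every control library. Hypoxia was 2.88-fold lower than control (log2 fold change -1.53, SE 0.085, adjusted p = 3.81e-13), and hypoxia + rSRGN was 2.10-fold lower (-1.07, SE 0.084, adjusted p = 1.65e-10). Hif1a was called in both comparisons. Hypoxia + rSRGN exceeded hypoxia by 1.37-fold (log2 fold change 0.46, SE 0.084, adjusted p = 0.000922), below the 1.5-fold limit, and this log2 difference was 0.38 to 0.56 across the alternatives, with adjusted p from 1.04e-07 to 0.00896. Exons of Hif1a share up to 330 bases with Gm15283 and Snapc1l, whose own counts were at most 63 in a library.

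Epas1 and Arnt, the other subunit genes, changed by less than the fold limit. Epas1, best known from endothelium, was at 84.2, 103 and 103 CPM in control, 86.7, 80.1 and 82.5 CPM in hypoxia, and 86.0, 103 and 94.5 CPM in hypoxia + rSRGN. The libraries of the 3 groups overlapped. Its log2 fold change was -0.22 in hypoxia against control (SE 0.086, adjusted p = 0.0301, from 0.00225 to 0.421 across the alternatives) and -0.03 in hypoxia + rSRGN against control (SE 0.086, adjusted p = 0.779), and it was not called in either. Arnt was at 99.3, 94.5 and 95.7 CPM in control, 80.6, 83.4 and 78.8 CPM in hypoxia, and 87.4, 82.5 and 87.1 CPM in hypoxia + rSRGN. Every control library was above every library of the hypoxic groups. The log2 fold change of Arnt was -0.25 in hypoxia (SE 0.069, adjusted p = 0.00254, up to 0.12 across the alternatives) and -0.17 in hypoxia + rSRGN (SE 0.069, adjusted p = 0.0318, up to 0.283), so that Arnt missed the fold limit in both. Its 3 control libraries differed by a factor of 1.05 from lowest to highest, the narrowest control range of the 10 genes.

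The balance between the α subunit genes was also taken as a ratio within each library, which does not depend on how libraries are scaled. Per kilobase of exon, with 0.5 counts added, Hif1a was 4.10, 2.94 and 3.14 times Epas1 in the control libraries, 1.26, 1.59 and 1.20 times in hypoxia, and 1.83, 1.52 and 1.56 times in hypoxia + rSRGN. All 6 hypoxic libraries were below the lowest control library, and Hif1a stayed above Epas1 in all 9. The geometric means were 3.36, 1.34 and 1.63 (log2 means 1.75 ± 0.25, 0.42 ± 0.22 and 0.71 ± 0.15, SD, n = 3). The two-sided exact permutation test gave p = 0.1 for each hypoxic group against control, the smallest that 3 libraries against 3 allow, and p = 0.3 for hypoxia + rSRGN against hypoxia (adjusted over 6 ratio tests, 0.3, 0.3 and 0.48). With 3 libraries against 3 this exact test cannot reach 0.05.

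Of the prolyl hydroxylase genes, Egln1 fell, and Egln3 spread widely between the control libraries. Egln1, whose product PHD2 is the main HIF hydroxylase in normal oxygen, was at 77.4, 80.6 and 92.0 CPM in control, 43.9, 54.3 and 43.0 CPM in hypoxia, and 51.0, 52.4 and 52.5 CPM in hypoxia + rSRGN. The control libraries were above all others, and the hypoxic groups overlapped each other. Egln1 was 1.77-fold lower in hypoxia (log2 fold change -0.82, SE 0.091, adjusted p = 4.1e-08) and 1.60-fold lower in hypoxia + rSRGN (-0.68, SE 0.090, adjusted p = 7.05e-07), and was called in both. Egln3, whose product PHD3 is best known as a hydroxylase gene induced by HIF itself, was at 10.1, 22.4 and 49.8 CPM in control, 19.2, 23.5 and 19.8 CPM in hypoxia, and 23.5, 18.1 and 19.0 CPM in hypoxia + rSRGN. Control libraries lay below, among and above the hypoxic ones. The log2 fold change of Egln3 in hypoxia against control was -0.39 (SE 0.30, adjusted p = 0.258, from 0.000351 to 0.489 across the alternatives), with a 95% interval of -1.02 to 0.24. Without control replicate 1 it was -0.81 (adjusted p = 0.00217) and Egln3 was called lower, and without control replicate 3 it was 0.35 (adjusted p = 0.142). Against control, hypoxia + rSRGN gave -0.44 (SE 0.30, adjusted p = 0.206, from 0.0001 to 0.475), which became -0.84 (adjusted p = 0.00155, called lower) and 0.31 (adjusted p = 0.205) without the same libraries. Per kilobase, Egln3 was 0.176, 0.374 and 0.730 times Egln1 in the control libraries, 0.592, 0.585 and 0.622 times in hypoxia and 0.623, 0.467 and 0.488 times in hypoxia + rSRGN, and the groups overlapped. The log2 difference of this ratio was 0.72 for hypoxia against control and 0.52 for hypoxia + rSRGN against control, and with single libraries left out it ran from 0.20 to 1.22 and from -0.00251 to 1.02. The exact permutation p was 0.4 for hypoxia against control, 0.5 for hypoxia + rSRGN against control and 0.4 between the hypoxic groups (adjusted 0.48, 0.5 and 0.48).

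**Figure D2:**
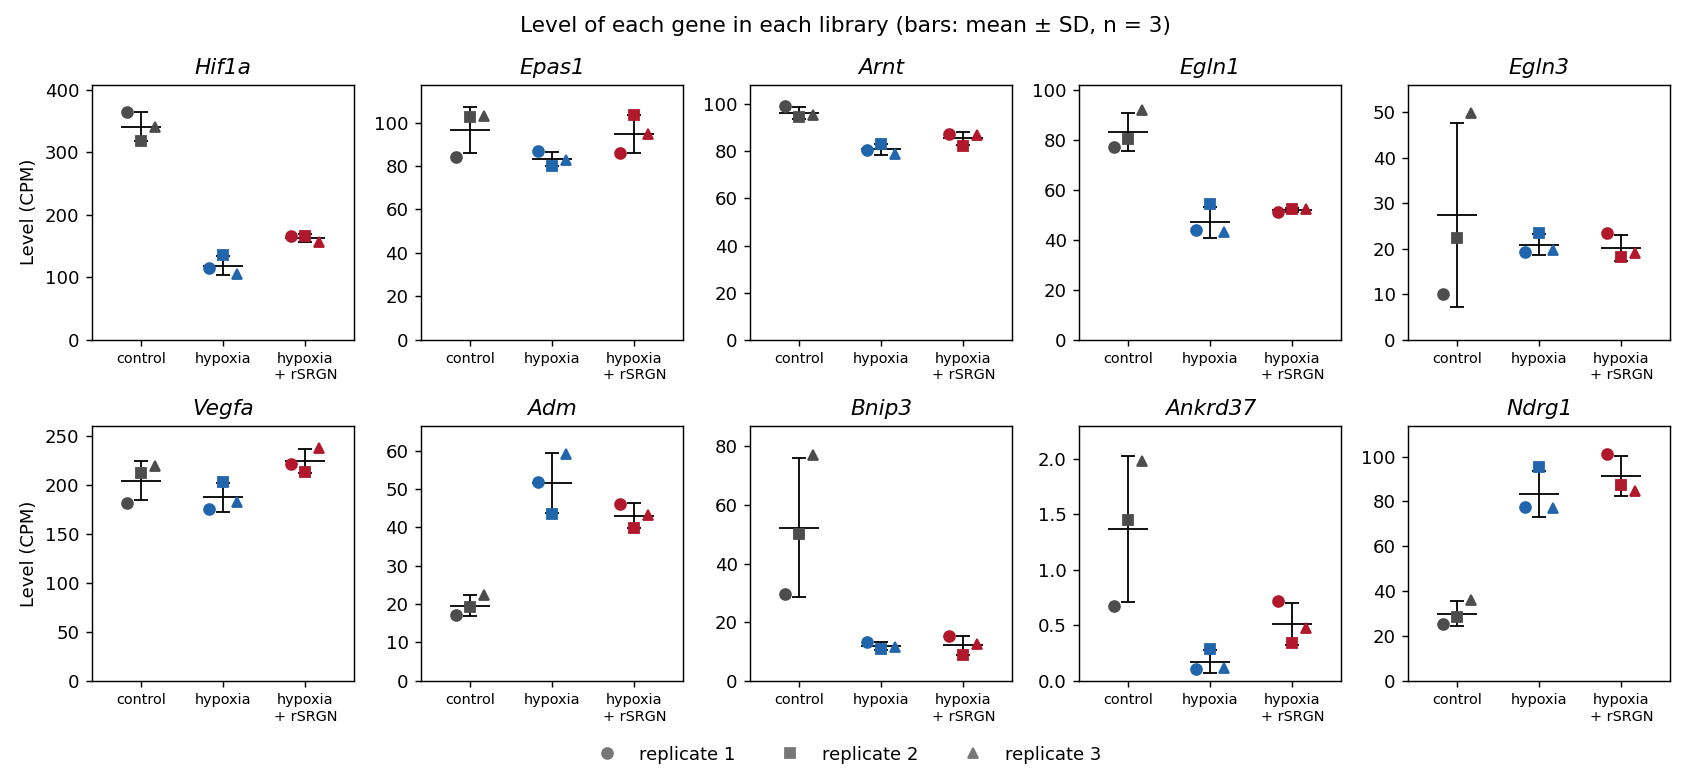
Level of each HIF gene in CPM (vertical axis, from 0) in the 9 libraries, by group, with marker shape for the replicate number and black bars for the mean ± SD of 3 libraries. Hif1a, Egln1, Bnip3 and Ankrd37 have their highest libraries in control and Adm and Ndrg1 their lowest, while the control points of Egln3 run from 10.1 to 49.8 CPM.

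The secreted factors went different ways. Vegfa, the growth factor for blood vessels, was at 182, 212 and 219 CPM in control, 176, 203 and 183 CPM in hypoxia, and 222, 214 and 237 CPM in hypoxia + rSRGN. The control libraries overlapped both hypoxic groups, and every hypoxia + rSRGN library was above every hypoxia library. The log2 fold change of Vegfa was -0.13 in hypoxia against control (SE 0.081, adjusted p = 0.166, 95% interval -0.29 to 0.04) and 0.01 with upper-quartile scaling, and it was 0.13 in hypoxia + rSRGN against control (SE 0.080, adjusted p = 0.143). Hypoxia + rSRGN exceeded hypoxia by 1.20-fold (0.26, SE 0.081, adjusted p = 0.0305), under the fold limit. That adjusted p ran from 0.00395 to 0.113 across the alternatives and was above 0.05 with upper-quartile scaling, without hypoxia replicate 1 or 3, and without any of the 3 hypoxia + rSRGN replicates. Adm encodes adrenomedullin, a vasodilating peptide, and was at 17.2, 19.3 and 22.4 CPM in control, 51.8, 43.6 and 59.3 CPM in hypoxia, and 46.2, 39.8 and 43.2 CPM in hypoxia + rSRGN. All hypoxic libraries were above all control libraries. Adm was called higher, 2.63-fold in hypoxia (log2 fold change 1.39, SE 0.12, adjusted p = 3.55e-10) and 2.19-fold in hypoxia + rSRGN (1.13, SE 0.12, adjusted p = 1.26e-08).

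Ndrg1, a stress-response gene of the N-myc downstream regulated family, rose in both hypoxic groups. It was at 25.3, 28.5 and 36.2 CPM in control, 77.4, 95.3 and 77.3 CPM in hypoxia, and 101, 87.5 and 84.8 CPM in hypoxia + rSRGN. The hypoxic groups overlapped each other and lay wholly above control. Ndrg1 was 2.78-fold higher in hypoxia (log2 fold change 1.48, SE 0.11, adjusted p = 9.42e-11) and 3.04-fold higher in hypoxia + rSRGN (1.61, SE 0.11, adjusted p = 2.57e-11). Its exons share up to 419 bases with the predicted genes Gm17035 and Gm2895, which held 0 counts.

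Bnip3 and Ankrd37, which are usually listed among the direct HIF targets, were lower in the hypoxic groups. Bnip3 encodes a protein of the outer mitochondrial membrane that acts in mitophagy and cell death. It was at 29.7, 50.0 and 77.1 CPM in control, 13.3, 10.9 and 11.4 CPM in hypoxia, and 15.2, 8.72 and 12.5 CPM in hypoxia + rSRGN. The lowest control library was above the highest hypoxic library although the controls themselves differed 2.59-fold. Bnip3 was 4.39-fold lower in hypoxia (log2 fold change -2.14, SE 0.23, adjusted p = 3.3e-08) and 4.33-fold lower in hypoxia + rSRGN (-2.11, SE 0.23, adjusted p = 3.98e-08). Its exons share up to 504 bases with the predicted gene Gm45507, which held 0 counts.

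Ankrd37, an ankyrin repeat gene, had few reads. Its counts were 15, 32 and 41 in control, 2, 5 and 2 in hypoxia, and 12, 7 and 9 in hypoxia + rSRGN, or 0.674, 1.45 and 1.98 CPM, 0.107, 0.289 and 0.116 CPM, and 0.715, 0.337 and 0.475 CPM. Hypoxia lay below both other groups, and the highest hypoxia + rSRGN library was above the lowest control library. Ankrd37 passed the filter on low counts only through its control libraries, where it was high, so its calls against control are given as a description. Ankrd37 was 7.78-fold lower in hypoxia (log2 fold change -2.96, SE 0.60, adjusted p = 0.000143) and 2.69-fold lower in hypoxia + rSRGN (-1.43, SE 0.50, adjusted p = 0.015, from 0.00588 to 0.116 across the alternatives). The call in hypoxia + rSRGN was lost without control replicate 3 (-1.07, adjusted p = 0.116) and without hypoxia + rSRGN replicate 2 (-1.20, adjusted p = 0.0755). Ankrd37 shares up to 349 exonic bases with Ufsp2 and Lrp2bp on the opposite strand, of which the more abundant had up to 760 counts in a library, and as counting did not use strand, its reads cannot be told apart from theirs in the shared bases.

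Across the 10 genes, 6 were called in hypoxia against control, 2 higher (Adm, Ndrg1) and 4 lower (Hif1a, Egln1, Bnip3, Ankrd37). Ankrd37 is among them although it passed the filter on low counts only through its control libraries. Of all genes tested, 51.6% were called in this comparison, 26.4% higher and 25.1% lower, so a share of 60% among the HIF genes was near the background. The median of their log2 fold changes was -0.32, against 0.05 over all genes tested. Without the fold limit 8 of the 10 passed, where 70.9% of all genes did. In hypoxia + rSRGN against control the same 6 genes were called in the same directions, where 48.8% of all genes were called, 24.1% higher and 24.7% lower, and the medians were -0.30 and 0.01. Without the fold limit 7 passed, where 68.6% of all genes did. Both comparisons use the same 3 control libraries. Groups did not overlap for 7 of the 10 genes in hypoxia against control, 2 with hypoxia higher and 5 with hypoxia lower, which held for 73% of all genes tested (37.7% higher, 35.3% lower). In hypoxia + rSRGN against control 6 of the 10 were apart, 2 higher and 4 lower, against 73.3% of all genes (36.6% higher, 36.6% lower).

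**Figure D3:**
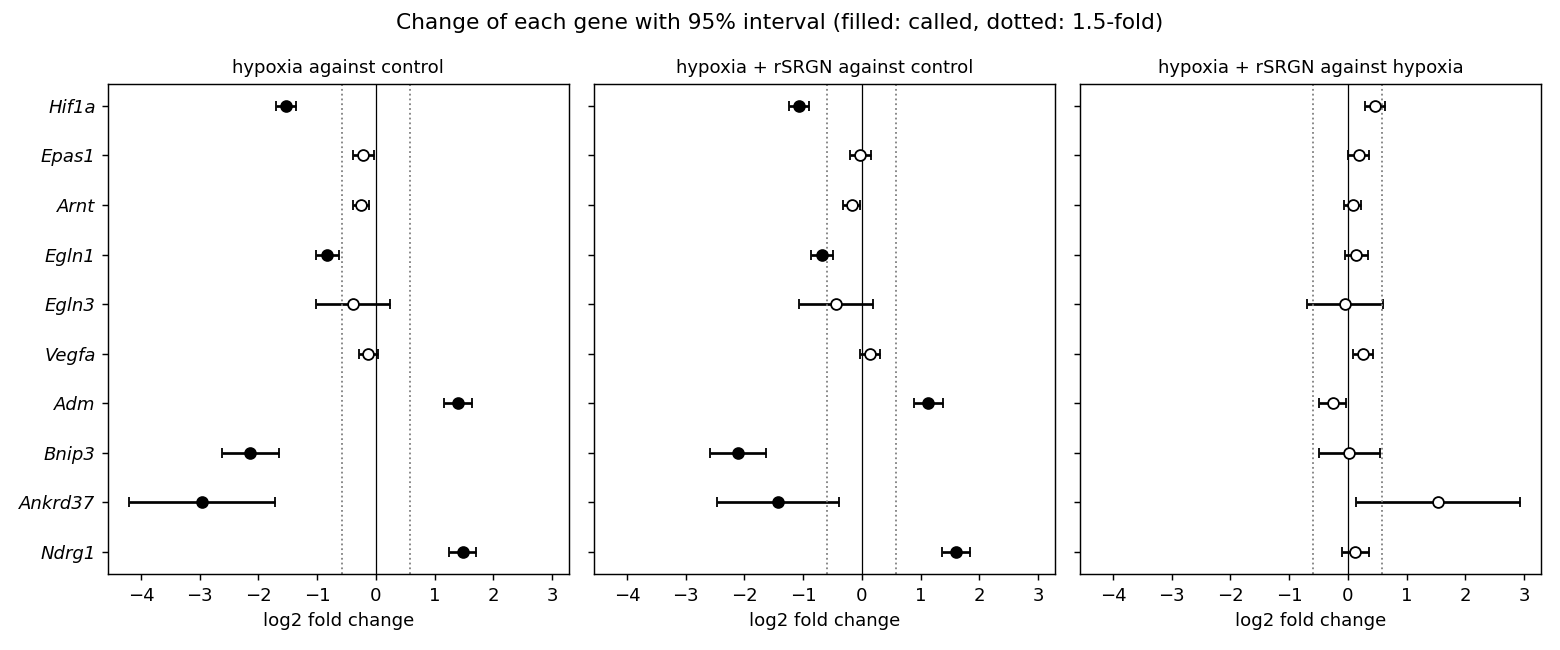
Log2 fold change of each HIF gene with its 95% interval in the 3 comparisons, where filled points were called and dotted lines mark a fold change of 1.5. Filled points stand on the left for Hif1a, Egln1, Bnip3 and Ankrd37 and on the right for Adm and Ndrg1 in both comparisons with control, and the third panel has no filled point.

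In hypoxia + rSRGN against hypoxia, edgeR called 0 of the 10 HIF genes, where 3.13% of all genes were called (2.27% higher, 0.859% lower), and DESeq2 also called 0. The share of all genes was 1.84% without hypoxia replicate 3 and 2.05% without hypoxia + rSRGN replicate 2, and 0 HIF genes were called in those fits as well. At an unadjusted p below 0.05 there were 5, where 29.4% of all genes passed, namely Hif1a, Epas1, Vegfa and Ankrd37 with higher values and Adm with lower. Hif1a and Vegfa passed an adjusted p of 0.05 without a fold limit, 2 of 10 where 16.6% of all genes passed. Groups did not overlap for these 2 genes and for Ankrd37, all higher in hypoxia + rSRGN, and 32% of all genes tested were separated in this way, 16.5% higher and 15.5% lower. The Ankrd37 log2 fold change of 1.53 rested on 28 counts against 9 (SE 0.67, adjusted p = 0.129, from 0.082 to 0.35 across the alternatives). Adm was at -0.26 (SE 0.11, adjusted p = 0.115, from 0.0153 to 0.476 across the alternatives), with the lowest p without hypoxia replicate 2 (-0.37). Without that library Egln1 was at 0.26 with the lowest of its adjusted p over the alternatives, which ran from 0.0357 to 0.681. With all libraries Epas1 was at 0.19 (SE 0.086, adjusted p = 0.151, from 0.0891 to 0.503 across the alternatives), and its libraries overlapped. For the remaining genes the intervals bound the change without showing that it is absent, from -0.05 to 0.33 for Egln1, -0.06 to 0.23 for Arnt, -0.09 to 0.35 for Ndrg1, -0.50 to 0.54 for Bnip3 and -0.69 to 0.60 for Egln3 on the log2 scale. Of the 10 cardiomyocyte markers, 9 were called higher with rSRGN in this comparison and their median log2 fold change was 0.77, and the part of this in the values of Hif1a and Vegfa was not tested.

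The spread within control set some HIF genes apart from most other genes. The ratio of the highest to the lowest control library was 4.94 for Egln3, the widest of the 9753 genes with a mean control level of at least 10 CPM, whose median ratio was 1.12. Bnip3 followed at 2.59, with 4 of these genes wider, namely Egln3, the lactate transporter gene Slc16a3 (2.89), the calsequestrin gene Casq1 (2.85) and the calponin gene Cnn1 (2.67), the last 3 named after their values were seen. Ndrg1 had a ratio of 1.43 with 1.3% of genes wider, and Adm 1.31 with 5.6% wider. Ankrd37, whose mean of 1.37 CPM was under the level limit, had a ratio of 2.94. The remaining genes, Hif1a, Epas1, Arnt, Egln1 and Vegfa, had ratios of 1.05 to 1.22. Control replicate 1 was the lowest and control replicate 3 the highest in 8 of the 10 HIF genes, all but Hif1a and Arnt, which held for 18.2% of all genes tested. The same held for 15 of 19 glycolytic HIF targets, 18 of 36 other HIF targets, 2 of 21 HIF regulators, 7 of 10 cardiomyocyte markers and 2 of 10 fibroblast markers. Summed cardiomyocyte markers were 45527, 52344 and 55062 CPM in control replicates 1, 2 and 3 and summed fibroblast markers 10106, 11559 and 11771 CPM, and their part in this spread was not tested. Within hypoxia the ratio was 1.22 for Egln3 and 1.23 for Bnip3, and within hypoxia + rSRGN it was 1.30 and 1.74.

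**Figure D4:**
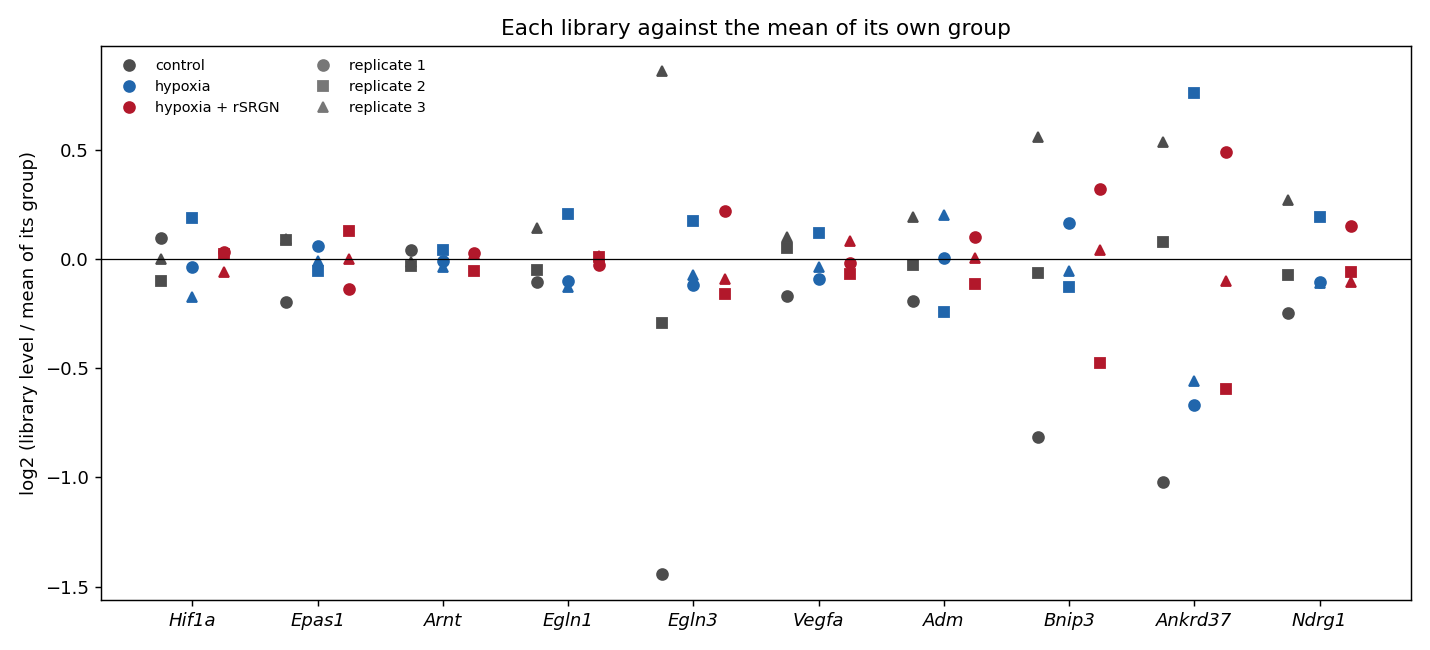
Log2 of the level in each library over the mean of its own group (vertical axis) for the 10 HIF genes, by group colour and replicate shape. The control points of Egln3, Bnip3 and Ankrd37 lie far apart with control replicate 1 lowest and control replicate 3 highest, and those of Arnt lie close to the line.

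The order of the levels per kilobase of exon changed between groups. In control the order in CPM per kilobase was Hif1a (57.8), Vegfa (47.7), Egln1 (23.2), Bnip3 (23.1), Epas1 (17.3), Adm (12.1), Arnt (12.05), Egln3 (10.3), Ndrg1 (4.55) and Ankrd37 (0.888). Neighbours whose control libraries overlapped were Egln1 and Bnip3, Bnip3 and Epas1, Adm and Arnt, Arnt and Egln3, and Egln3 and Ndrg1. In hypoxia Vegfa was highest at 43.7 CPM per kilobase, ahead of Adm (31.8), Hif1a (20.1), Epas1 (14.9), Egln1 (13.1), Ndrg1 (12.6), Arnt (10.1), Egln3 (7.83), Bnip3 (5.24) and Ankrd37 (0.111), with overlaps between Epas1 and Egln1 and between Egln1 and Ndrg1. Adm thus moved from the 6th place to the 2nd, and Bnip3 from the 4th to the 9th. In hypoxia + rSRGN the order was Vegfa (52.3), Hif1a (27.6), Adm (26.6), Epas1 (16.9), Egln1 (14.5), Ndrg1 (13.8), Arnt (10.7), Egln3 (7.59), Bnip3 (5.36) and Ankrd37 (0.331), with overlaps between Hif1a and Adm and between Egln1 and Ndrg1.

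The gene whose log2 level followed each HIF gene most closely over the 9 libraries was looked up among protein-coding genes with a mean of at least 10 CPM. The highest Pearson correlations were those of Hif1a with Qk (0.998), Ndrg1 with Matn2 (0.997), Adm with Mib2 (0.995) and Egln1 with Ghitm (0.994). Arnt was closest to C1galt1 (0.989), Bnip3 to Vcp (0.979) and Ankrd37 to Akirin1 (0.961). The lowest of the best matches were Epas1 with Cc2d1a (0.918), Vegfa with Plxna1 (0.915) and Egln3 with Ppme1 (0.836). These values are maxima over 9528 or 9529 candidates, the 9 points share 3 groups, and they are given as a description.

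Among 21 further regulators of HIF, 6 were called higher and 4 lower in hypoxia against control, and the median over the list was 0.19 on the log2 scale. These 10 calls (47.6%) compare with 51.6% of all genes tested, 26.4% higher and 25.1% lower, a share no larger than the background. The largest rises were those of Hsp90aa1, a chaperone that holds HIF-1α stable (458 ± 14.1 CPM in control and 1838 ± 109 CPM in hypoxia, log2 fold change 2.01), of Rack1, which promotes its degradation without oxygen sensing (1.58), and of Cited2, which competes with HIF for the coactivators p300 and CBP (1.56). The largest falls were those of Cited4, a relative of Cited2 (23.9 ± 2.58 CPM in control and 0.899 ± 0.178 CPM in hypoxia, -4.72), of Hif1an, the asparaginyl hydroxylase that blocks coactivator binding in normal oxygen (-2.02), and of Hif3a, a further α subunit gene with 2 to 10 counts per hypoxia library (-1.79). Hif3a passed the filter on low counts only through its control libraries, which held 19 to 29 counts, so its fall is given as a description. Vhl, the recognition subunit of the ligase, was at -0.56 (SE 0.11, adjusted p = 0.000111), under the fold limit. In hypoxia + rSRGN against control the counts were again 6 higher and 4 lower, 47.6% against 48.8% of all genes tested. Between the hypoxic groups edgeR called 0 of 21, where 3.13% of all genes were called, with 11 at an unadjusted p below 0.05, where 29.4% of all genes passed, and DESeq2 calling 0 as well.

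Of 38 further HIF targets, 36 were tested and Epo and Nos2 were not. In hypoxia against control 13 were called higher and 10 lower, and the median over the list was 0.40 on the log2 scale. These 23 calls (63.9%) compare with 51.6% of all genes tested, 26.4% higher and 25.1% lower, and with an all-gene median of 0.05. Higher were Edn1, the vasoconstrictor endothelin-1 (10.3 ± 1.496 CPM in control and 68.7 ± 5.33 CPM in hypoxia, log2 fold change 2.74), P4ha1, a collagen prolyl hydroxylase subunit (1.41), and Tmem45a (1.40). Lower were Tfrc, the transferrin receptor (282 ± 24.3 CPM in control and 19.0 ± 2.73 CPM in hypoxia, -3.89), Ppp1r3c, a glycogen-targeting phosphatase subunit (-2.85), and Narf (-2.79). In hypoxia + rSRGN against control 14 were called higher and 10 lower, 66.7% against 48.8% of all genes tested (24.1% higher, 24.7% lower). Between the hypoxic groups 2 of 36 were called (5.56%, against 3.13% of all genes tested), both higher with rSRGN. At an adjusted p below 0.05 without a fold limit 14 of 36 passed, where 16.6% of all genes tested did. At an unadjusted p below 0.05 there were 16, where 29.4% of all genes passed. Tfrc was at 18.9, 21.7 and 16.3 CPM in hypoxia and 35.1, 27.5 and 30.5 CPM in hypoxia + rSRGN (log2 fold change 0.71, SE 0.11, adjusted p = 0.000223). Kdr, the VEGF receptor that is also an endothelial marker, was at 3.60, 3.18 and 2.78 CPM in hypoxia and 6.61, 6.70 and 4.97 CPM in hypoxia + rSRGN (0.93, SE 0.21, adjusted p = 0.00448). It was the 1 endothelial marker of 10 that was called in this comparison, and the median over the 10 was 0.10 on the log2 scale. Without hypoxia replicate 2, 4 targets were called, in a fit that also called 4% of all genes, and the share of all genes was 1.84% without hypoxia replicate 3 and 2.05% without hypoxia + rSRGN replicate 2. Of 19 glycolytic HIF targets, 2 were called higher and 13 lower in hypoxia against control, with a median of -0.88, so that 78.9% were called against 51.6% of all genes tested, whose median was 0.05.

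**Figure D5:**
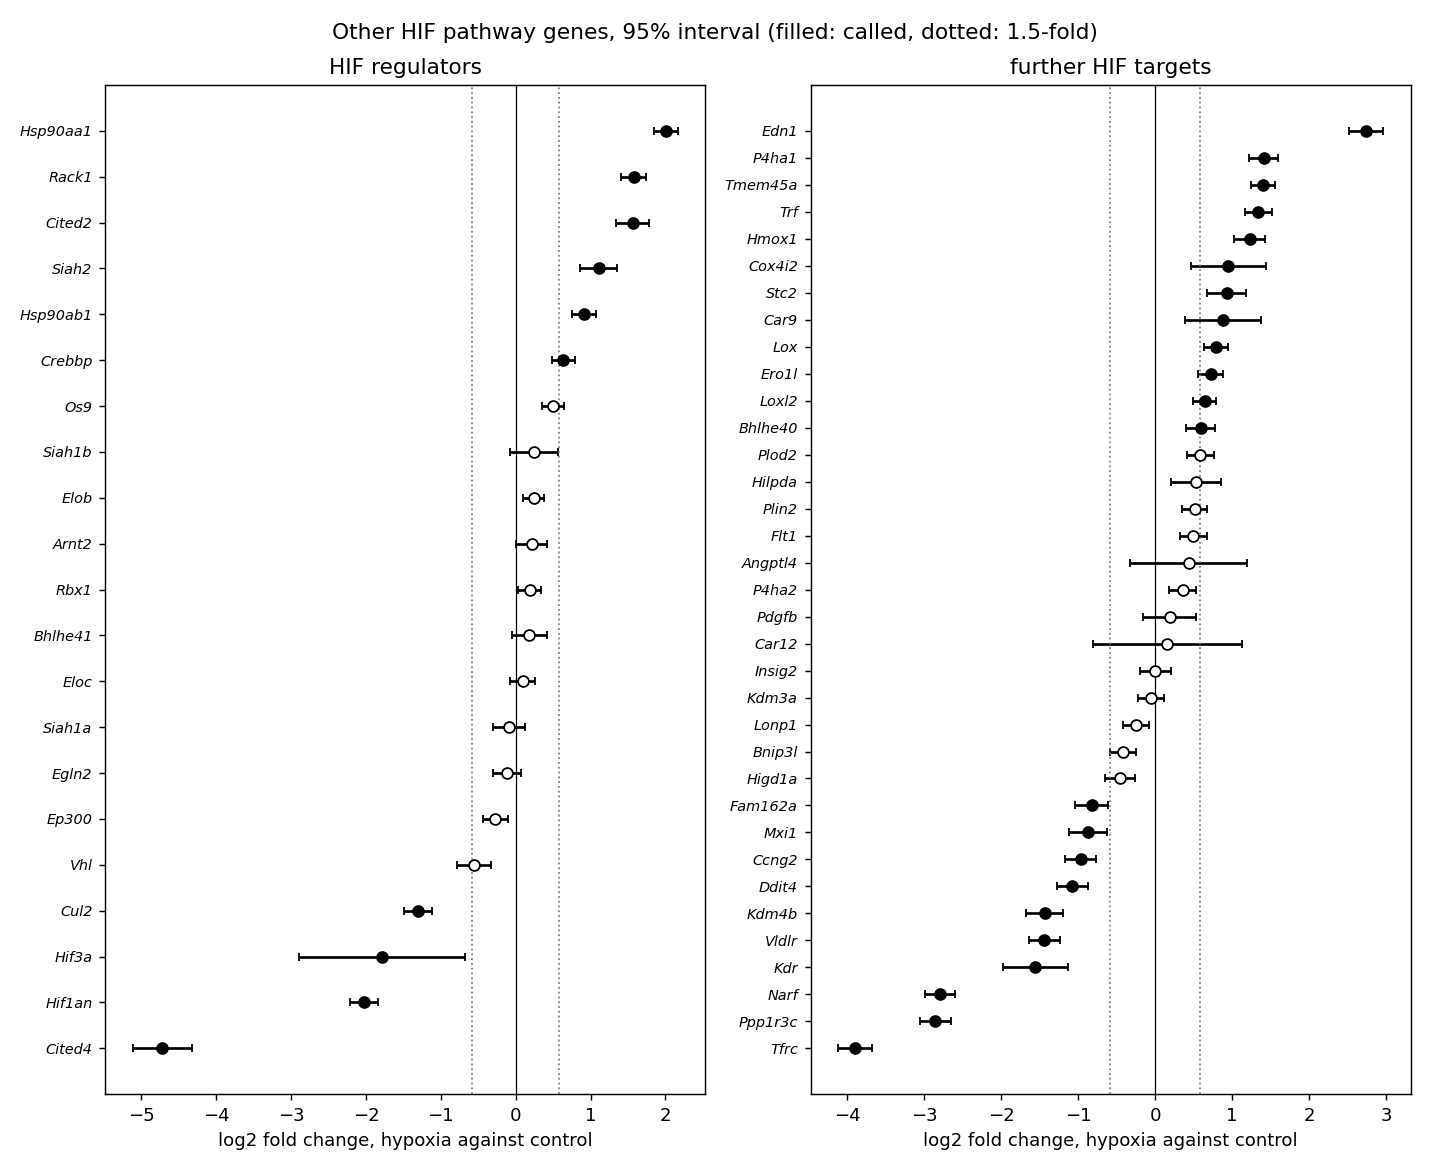
Log2 fold change in hypoxia against control with its 95% interval for the further HIF regulators and the further HIF targets that are shown, ordered by value, where filled points were called and dotted lines mark a fold change of 1.5. Both lists spread to both sides of 0, from Cited4 at -4.72 to Hsp90aa1 at 2.01 among regulators and from Tfrc at -3.89 to Edn1 at 2.74 among targets.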

How the data were processed

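Poly(A) RNA of 9 neonatal mouse ventricular myocyte cultures was sequenced on an Illumina NovaSeq. The authors deposited raw fragment counts for each gene, as whole numbers with no scaling. Per the file headers they were made with featureCounts 2.0.1 in paired-end mode, on exons, with GENCODE mouse release 25 (GRCm38) and no strand option, and the submitters' processing notes name HISAT2 and mm10. Groups came from the treatment labels. All columns of counts were used.

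Groups were compared with edgeR 4.0.16 under R 4.3.3 (filterByExpr, TMM, a mean per group over 9 libraries, quasi-likelihood test, Benjamini-Hochberg adjustment). CPM are TMM-scaled. Intervals are 95% and come from the fit. Within-library ratios had 0.5 counts added and were compared with an exact permutation test. The edgeR step was also run on simulated counts in which a small share of genes changed. That run does not cover changes as broad as those against control here. Counts of 2 libraries of a group differed beyond sampling noise (chi-square per degree of freedom 3.74 to 14.2), and all 9 were treated as separate libraries. That measure cannot tell whether they came from separate cultures. A gene's depth is its count, and genes with few counts have wide intervals.

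Promoters were RefSeq sequences on GRCm38.p6, and figures were drawn with matplotlib 3.10.9. Of the listed regulators and targets, the 3 largest called rises and falls in hypoxia and every gene called between the hypoxic groups were named. For each HIF gene the protein-coding gene with the highest correlation of log2 CPM (prior count 2) was named. A listed target that counts in the totals is not reported here by name or in a figure. The 10 genes, the lists and these rules were chosen with earlier results of these data known. Alternatives were RLE, upper-quartile and library-size scaling, DESeq2 1.42.0, 2 other count filters, a fit without the libraries of the other group, a block for the replicate number, no fold limit, and each library left out in turn.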

Additional observations from a re-analysis of the deposited data

How the results depend on the processing

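Under the scalings, DESeq2, the filters, the fit of only the groups compared and the replicate block, the calls for the HIF genes stayed the same genes, except that Ankrd37 was not tested with a filter of at least 10 counts in every library, which left 5 of 9 called in each comparison with control, beside 49.7% and 46.8% of all genes. Leaving out each library gave 6 to 7 called in hypoxia against control, 5 to 7 in hypoxia + rSRGN against control and 0 between the hypoxic groups, beside 49.2 to 51.5%, 46.4 to 48.9% and 1.84 to 4% of all genes. Without a fold limit the calls between the hypoxic groups were 2 of 10 HIF genes, 4 of 21 regulators and 14 of 36 targets. Under that wider rule 16.6% of all genes were called. Called targets between the hypoxic groups were 2 to 4 over the libraries left out, with 4 without hypoxia replicate 2. Some differences that were not called changed sign, and the cause was not tested. With upper-quartile scaling these were Vegfa in hypoxia against control (0.00995), Epas1 in hypoxia + rSRGN against control (0.0620) and Bnip3 between the hypoxic groups (-0.0250), and with library size alone Epas1 (0.0197). Over single libraries left out, Epas1 in hypoxia + rSRGN against control ran from -0.13 to 0.0346 and was above 0 without control replicate 2, control replicate 3 or hypoxia + rSRGN replicate 1. Between the hypoxic groups Bnip3 ran from -0.16 to 0.22, below 0 without hypoxia replicate 2, hypoxia replicate 3 or hypoxia + rSRGN replicate 1, and Egln3 ran from -0.17 to 0.0472, above 0 without hypoxia replicate 2, hypoxia + rSRGN replicate 2 or hypoxia + rSRGN replicate 3. Without control replicate 3, Egln3 against control was 0.35 in hypoxia and 0.31 in hypoxia + rSRGN, the upper ends of ranges that began at -0.81 and -0.84 without control replicate 1, where it was called lower. The log2 ratio of Egln3 to Egln1 in hypoxia + rSRGN against control was 0.52 with all libraries, -0.00251 without control replicate 1 and at most 1.02 over the libraries left out. None of the values with a changed sign was called.

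Upper-quartile scaling moved the median log2 fold change of all genes in hypoxia against control from 0.05 to 0.19. In hypoxia + rSRGN against hypoxia, 72.57% of called genes were higher with TMM, 57.86% with upper-quartile scaling and 81.07% with DESeq2. Replicate numbers did not pair the libraries (correlations -0.0374 to 0.0215), and the replicate block gave 8550, 8096 and 495 called genes in the 3 comparisons against 8644, 8183 and 525, with 6, 6 and 0 HIF genes. The 9 counts of Ankrd37 over the hypoxia group limit its precision, and the control libraries of Egln3 spread 4.94-fold.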
